A study of Mus musculus with 24 samples.

Results

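The genes described here are Il1rl1, which encodes ST2, the receptor of interleukin-33, and 5 further genes of the interleukin-1 family. These are Il1rap, Il1r1, Il33, Il1rn and Il1a, so that the set holds 6 of the 55487 genes in the deposited count table. Each symbol matched 1 row. The 6 genes were chosen by their measured levels over these groups, Il1rl1 leading, and their levels and differences are therefore given as a description, with no test. Of the 6, 5 passed the filter on low counts and Il1a did not. Il1rl1 and Il1rn are near 0 in controls and passed through the groups where they are high, so that a difference was built into their passing.

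Total RNA was sequenced from Myc-CaP, an established mouse prostate tumour cell line. Every group, controls included, comes from this single line and overexpresses MYC. Drugs were given without a break for 6 days, in medium renewed every 3 days, and the study asked about drugs that induce senescence. The groups are etoposide at 500 nM, which traps topoisomerase II on DNA, alisertib at 500 nM, an inhibitor of Aurora kinase A, docetaxel at 3.75 µM, which stabilises microtubules, and PF-06873600 at 500 nM, an inhibitor of the cyclin-dependent kinases CDK2, CDK4 and CDK6. The remaining groups are T/P, palbociclib at 1 µM, which inhibits CDK4 and CDK6, Nutlin at 500 nM, which keeps MDM2 from binding p53, and the solvent DMSO. T/P was read as 25 nM trametinib, which blocks the kinase MEK, together with 1 µM palbociclib, since the protocol names trametinib and no other group carries it. Each of the 8 groups has 3 libraries, numbered as in the labels.

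Interleukin-33 is kept in the nucleus and set free when a cell is damaged, and it is known as an alarm signal of epithelial and stromal cells. Outside the cell it binds ST2, which then recruits the accessory protein encoded by Il1rap, and the pair signals through MyD88 and IRAK kinases to NF-κB. The interleukin-1 receptor encoded by Il1r1 uses the same accessory protein and the same route. In mice Il1rl1 is read from a distal promoter, known from mast cells, and a proximal promoter, known from fibroblasts, and besides the membrane receptor it makes a shorter, soluble ST2 that catches interleukin-33 as a decoy.

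Start regions of Il1rl1 and of its ligand gene are shown because the counts per gene pool all start sites of a gene. They are RefSeq promoter windows on GRCm38.p6, each 300 bases of the plus strand, and the capitals mark matches to 4 motifs that were chosen after the sequences had been seen. The motifs were GGANTTTCC for NF-κB, TGANTCA for AP-1, CACGTG for the E-box and AGATAA for GATA factors, each searched on both strands. The distal and proximal Il1rl1 windows lie at chr1:40429320-40429619 and chr1:40439379-40439678. Transcripts annotated in GENCODE vM21 that start at 40436589, 40439776 and 40440628 begin outside both windows.
Il1rl1 distal: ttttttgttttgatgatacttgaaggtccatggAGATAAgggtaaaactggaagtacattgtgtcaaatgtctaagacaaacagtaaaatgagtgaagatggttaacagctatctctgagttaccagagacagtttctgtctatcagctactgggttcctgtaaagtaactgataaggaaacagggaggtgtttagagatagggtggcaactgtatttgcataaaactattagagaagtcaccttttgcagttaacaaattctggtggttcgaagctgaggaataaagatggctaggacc
Il1rl1 proximal: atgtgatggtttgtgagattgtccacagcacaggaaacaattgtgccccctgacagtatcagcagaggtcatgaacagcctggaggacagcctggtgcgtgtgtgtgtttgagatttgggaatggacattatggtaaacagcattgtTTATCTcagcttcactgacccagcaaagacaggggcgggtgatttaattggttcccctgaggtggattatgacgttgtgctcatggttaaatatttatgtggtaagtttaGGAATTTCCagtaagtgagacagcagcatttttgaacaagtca
The distal window held the GATA letters at position -217 from the start. The proximal window held the NF-κB letters GGAATTTCC from the base at +8 and the GATA letters on the minus strand at -103. Matches overlapped no other motif. Among 32851 promoter windows of the same length, 1.25% held the NF-κB motif and 11.2% the GATA motif. The windows of Il33 lie at chr19:29924863-29925162 and chr19:29945540-29945839, and the first of them reads as follows.
Il33 first window: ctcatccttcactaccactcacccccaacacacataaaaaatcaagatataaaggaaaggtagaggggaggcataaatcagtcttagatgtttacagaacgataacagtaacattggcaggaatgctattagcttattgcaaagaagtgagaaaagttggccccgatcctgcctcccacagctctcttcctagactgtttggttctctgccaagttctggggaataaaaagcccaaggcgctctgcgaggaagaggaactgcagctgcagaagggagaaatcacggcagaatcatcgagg
Neither Il33 window held any of the 4 motifs. A match is a description of the letters and not a binding site.

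Il1rl1 (ENSMUSG00000026069.15) spans positions 40429570 to 40465415 of chromosome 1 on mm10, plus strand, in GENCODE vM21. Its annotation has 5 coding transcripts. Of these, 2 with 1701 coding bases reach the end of the gene and 2 with 1011 coding bases end earlier. The counts are per gene, so that membrane and soluble ST2 cannot be told apart. The gene stands in a row of interleukin-1 receptor genes on the same strand, in the order Il1r2, Il1r1, Il1rl2, Il1rl1, Il18r1 and Il18rap, which covers 477627 bases, and Il18r1 starts 136 bases after Il1rl1 ends.

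Total counts were 21260781 to 28318784 in 23 libraries and 69757257 in Docetaxel 1. Libraries numbered 2, apart from Palbociclib 2, stood apart from the others of their group on the second principal component, which held 11.3% of the variance, and had lower counts of the nuclear RNA Neat1. Values without all libraries numbered 2 are therefore given below. The label prostate was set against 10 epithelial markers. Foxa1 was high, at 171 to 191 CPM in etoposide libraries and 350.1 to 423 CPM in DMSO libraries, while in both groups Epcam was at or near 0 and Krt18 stayed under 1 CPM. CPM are counts scaled to library size with TMM factors. The 8 mast cell markers summed to at most 0.966 CPM and the 8 markers of T cells and group 2 innate lymphoid cells to at most 1.21 CPM in any library. Mast cell markers summed to 0.267 to 0.463 CPM in etoposide and 0 to 0.166 CPM in DMSO libraries, and markers of T cells and group 2 innate lymphoid cells to 0.305 to 0.498 CPM and 0.0414 to 0.159 CPM. Of the mast cell markers only Hdc was tested, and it was called higher in etoposide, alisertib and docetaxel cells, at 0.246, 0.471 and 0.913 CPM, against 0.0537 CPM in DMSO cells (adjusted p = 0.023, 8.7e-04 and 2.3e-05). The 7 endothelial markers summed to 7.28 to 8.23 CPM in etoposide and 0.199 to 0.539 CPM in DMSO libraries, mostly Vwf, and 7 macrophage markers to 15.2 to 16.4 CPM and 6.88 to 8.51 CPM, mostly Cd14. The 7 fibroblast markers summed to 17.8 to 24.9 CPM in etoposide and 13.5 to 22.0 CPM in DMSO libraries, mostly Pdgfra, which was not called in etoposide. The other 3 tested fibroblast markers were called higher there: Dcn averaged 0.487 CPM and Pdgfrb 0.336 CPM, each with 0 counts in DMSO, and Col1a1 0.755 CPM, against 0.0826 CPM in DMSO cells. All 4 were called higher in alisertib and docetaxel. Sums of mast cell, lymphoid, endothelial and macrophage markers were thus higher in all etoposide than in all DMSO libraries, while fibroblast sums overlapped. No T cell or innate lymphoid marker passed the filter. Il1rl1 averaged 31.5 CPM in PF-06873600 and 11.1 CPM in docetaxel cells. Mast cell sums averaged 0.208 and 0.947 CPM there, lymphoid sums 0.310 and 0.984 CPM, and endothelial sums 2.54 and 4.54 CPM. Macrophage sums averaged 9.99 and 13.2 CPM and fibroblast sums 26.0 and 27.4 CPM. In the other groups endothelial sums averaged 7.86 CPM in etoposide, 5.55 in alisertib, 1.76 in T/P, 1.79 in palbociclib, 0.333 in Nutlin and 0.377 in DMSO cells. The part of these markers in the results was not tested. In Nutlin libraries, where Il1rl1 was as low as in DMSO, the endothelial sum was 0.0883 to 0.563 CPM and the macrophage sum 5.96 to 6.37 CPM. Fewer cells of a type and less RNA per cell cannot be told apart in bulk libraries.

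Il1rl1 was above 8 CPM in every library of 6 of the 7 treatments, against 0.502 ± 0.214 CPM in DMSO libraries (SD, n = 3). In etoposide cells it stood at 44.0, 45.9 and 47.1 CPM, the highest of the study. DMSO libraries had 0.524, 0.705 and 0.279 CPM, which are 12, 17 and 7 counts. The lowest etoposide library was thus far above the highest control, and the log2 fold change was 6.50 ± 0.174 (SE), a ratio of 90.8. Alisertib libraries had 25.6, 24.9 and 25.3 CPM, a spread of only 0.350 CPM (SD), with a log2 fold change of 5.65 ± 0.178 against DMSO. PF-06873600 libraries had 29.9, 36.8 and 27.7 CPM and a log2 fold change of 5.96 ± 0.176. All of them lay above all alisertib libraries and below all etoposide libraries.

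Docetaxel, T/P and palbociclib gave a lower tier. Il1rl1 was at 10.3, 11.0 and 11.99 CPM in docetaxel libraries, with a log2 fold change of 4.45 ± 0.186 against DMSO. T/P libraries had 9.61, 10.2 and 9.41 CPM, and palbociclib libraries 8.58, 10.5 and 8.25 CPM. The T/P and palbociclib values overlapped, with a log2 difference of 0.10 ± 0.123 between them, and both groups stood 4.28 ± 0.190 and 4.17 ± 0.192 above DMSO on the log2 scale. Nutlin stood apart from the other 6 drugs, with 0.548, 0.563 and 0.794 CPM, or 11, 13 and 18 counts. These values overlapped those of DMSO and the log2 fold change was 0.35 ± 0.305.

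**Figure D1:**
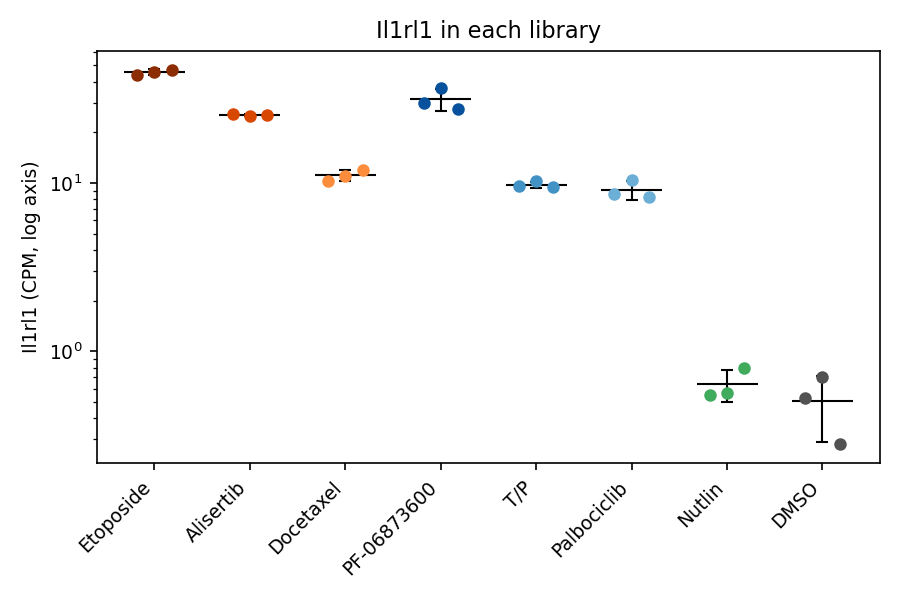
Il1rl1 in each of the 24 libraries as CPM on a log axis, by group, with points for libraries, long lines for means and bars for the SD of 3 libraries. Etoposide, at 44.0 to 47.1 CPM, is highest, and Nutlin and DMSO lie below 0.8 CPM.

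The order by group mean was etoposide, PF-06873600, alisertib, docetaxel, T/P, palbociclib, Nutlin and DMSO. Of the 7 neighbouring pairs in this order, the library values of T/P and palbociclib and those of Nutlin and DMSO overlapped, and the other 5 pairs did not. PF-06873600 and palbociclib, both inhibitors of CDK4 and CDK6, had means of 31.5 ± 4.78 and 9.10 ± 1.19 CPM, at doses that differ. Without the libraries numbered 2 the means were 45.5 CPM in etoposide, 25.4 in alisertib, 11.1 in docetaxel, 28.8 in PF-06873600, 9.51 in T/P, 8.42 in palbociclib, 0.671 in Nutlin and 0.401 CPM in DMSO cells, in the same order.

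The accessory receptor gene Il1rap (ENSMUSG00000022514.14, chromosome 16, 26581704 to 26730117) differed far less than Il1rl1. It was at 9.46, 13.2 and 12.5 CPM in etoposide libraries and 10.9, 12.7 and 12.9 CPM in alisertib libraries, against 4.41, 5.14 and 4.94 CPM in DMSO libraries. Both treatments lay wholly above DMSO, with log2 fold changes of 1.28 ± 0.157 and 1.33 ± 0.157. Docetaxel libraries had 9.88, 7.89 and 8.05 CPM and PF-06873600 libraries 8.13, 10.9 and 9.27 CPM. They were also above all DMSO libraries, by 0.84 and 0.96 on the log2 scale. T/P libraries had 6.07, 6.96 and 5.31 CPM, just above DMSO, and palbociclib libraries 4.37, 5.98 and 4.66 CPM, overlapping DMSO. Nutlin was the only treatment with all Il1rap values below DMSO, at 3.79, 3.55 and 2.91 CPM, a log2 fold change of -0.50 ± 0.174.

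Il1r1 (ENSMUSG00000026072.12, chromosome 1, 40225080 to 40317257), the signalling receptor of interleukin-1, followed a similar order on a higher base. It was at 20.7, 19.8 and 22.4 CPM in etoposide libraries, against 8.29, 9.37 and 8.17 CPM in DMSO libraries, a log2 fold change of 1.28 ± 0.0982. Alisertib libraries had 16.7, 18.3 and 17.5 CPM, docetaxel libraries 14.4, 12.5 and 13.9 CPM, and PF-06873600 libraries 12.4, 12.6 and 14.6 CPM. All of these lay above all DMSO libraries, with log2 fold changes of 1.02 ± 0.0985, 0.66 ± 0.0983 and 0.62 ± 0.0997. Palbociclib, at 10.7, 9.67 and 10.9 CPM, was also above them, while T/P, at 10.4, 8.56 and 10.2 CPM, and Nutlin, at 8.12, 9.36 and 8.96 CPM, overlapped them. Without the libraries numbered 2, Il1r1 averaged 21.5 CPM in etoposide and 8.23 CPM in DMSO cells, and Il1rap 11.0 and 4.68 CPM.

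Il33 (ENSMUSG00000024810.16, chromosome 19, 29925114 to 29960718), the ligand of ST2, was present in controls and had its largest difference in Nutlin cells, in the downward direction. Nutlin libraries had 2.99, 4.76 and 2.87 CPM, against 12.9, 16.5 and 15.9 CPM in DMSO libraries. The groups were fully apart, with a log2 fold change of -2.09 ± 0.177, so that the mean of Il33 was 4.27 times lower with Nutlin. Etoposide libraries had 21.05, 23.0 and 23.9 CPM, and docetaxel libraries 20.02, 22.9 and 21.8 CPM, with log2 fold changes of 0.58 ± 0.148 and 0.51 ± 0.147 against DMSO. All of these lay above all controls, as did PF-06873600 at 18.3 to 21.7 CPM and T/P at 18.4 to 24.2 CPM. Alisertib, at 15.4 to 20.7 CPM, and palbociclib, at 14.3 to 20.2 CPM, overlapped DMSO. Every neighbouring pair of groups overlapped in Il33 except DMSO and Nutlin.

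**Figure D2:**
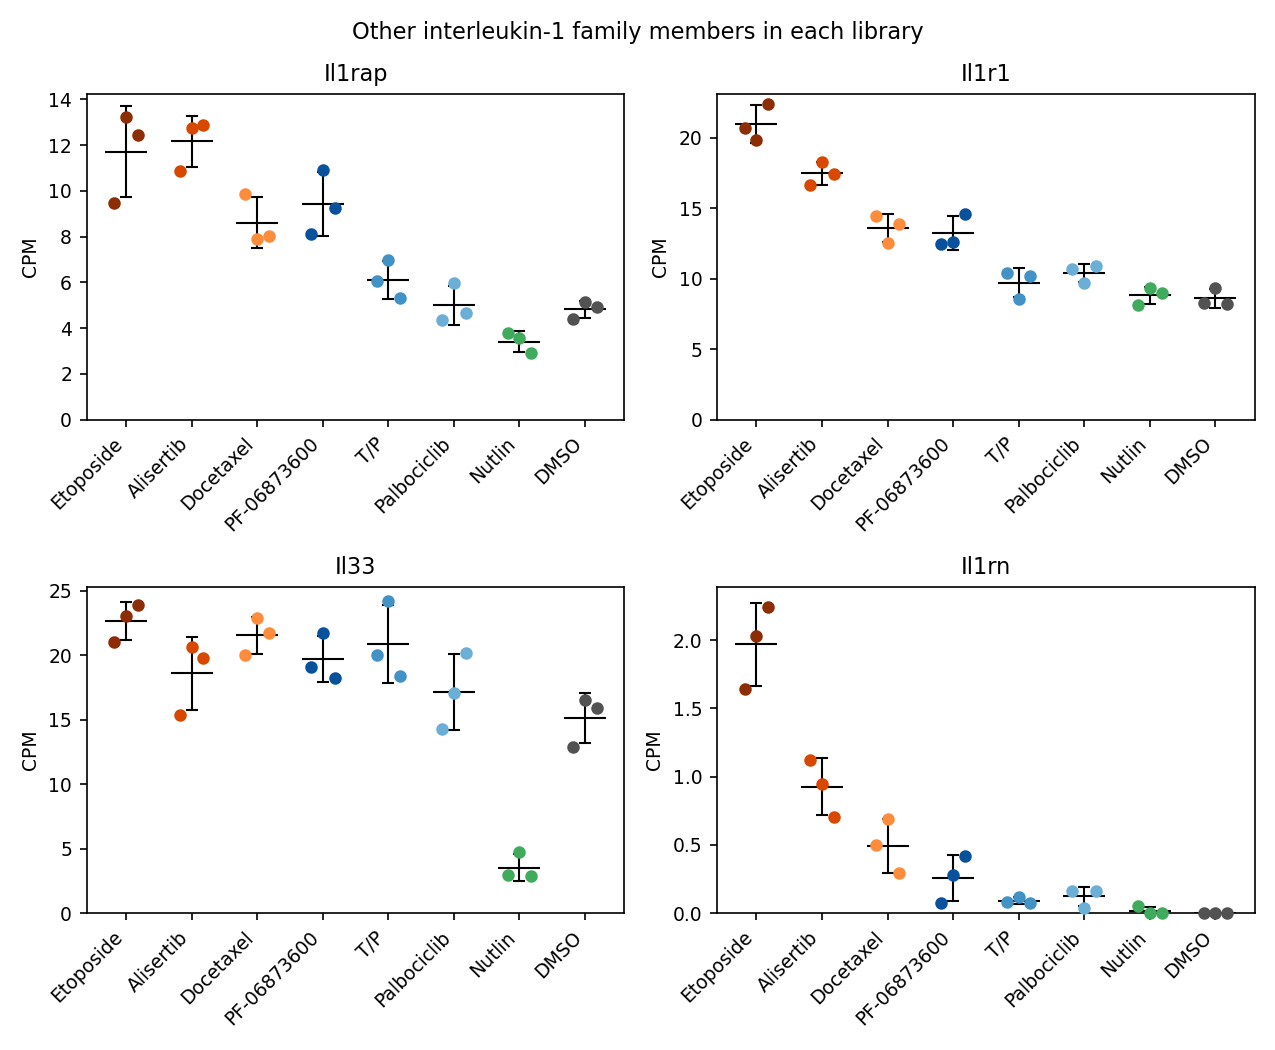
Il1rap, Il1r1, Il33 and Il1rn in each library as CPM, 1 panel a gene, with means and the SD of 3 libraries. Il33 is at 2.87 to 4.76 CPM in Nutlin libraries and at 12.9 CPM or more in all others, and Il1rn has 0 counts in DMSO.

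Set per length, as TPM, the balance of receptor and partners differed between groups. Il1rl1 had 21.4 ± 2.03 TPM in etoposide and 0.202 ± 0.0812 TPM in DMSO cells, and Il1rap 3.32 ± 0.555 and 1.19 ± 0.113 TPM. The TPM ratio of Il1rl1 to Il1rap was therefore 6.53 ± 1.01 in etoposide, 5.52 ± 0.574 in PF-06873600, 2.15 to 3.44 in alisertib, docetaxel, T/P and palbociclib group means, 0.316 ± 0.116 in Nutlin and 0.172 ± 0.0697 in DMSO cells. The receptor gene was above its accessory gene in every library of those 6 treatments and below it in every Nutlin and DMSO library. Il33 exceeded Il1rl1 in TPM in every group, by a ratio of 1.19 ± 0.0364 in etoposide, 13.96 ± 5.85 in Nutlin and 83.8 ± 45.6 in DMSO cells. Il1rl1 exceeded Il1r1 in TPM in every library of etoposide, alisertib and PF-06873600 cells, with mean ratios of 2.01, 1.34 and 2.22, against 0.0531 in DMSO cells.

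**Figure D3:**
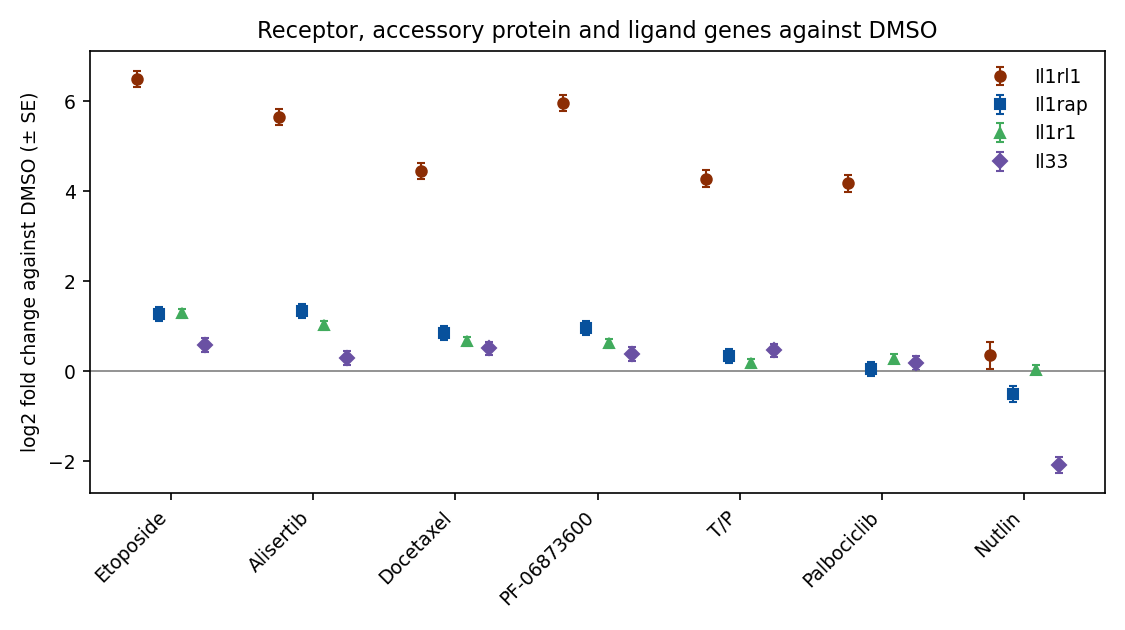
Log2 fold changes against DMSO of Il1rl1, Il1rap, Il1r1 and Il33 for the 7 treatments, with SE from the fit over all 24 libraries. Il1rl1 lies at 4.17 to 6.50 in 6 treatments, and Il33 is at -2.09 with Nutlin.

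Il1rn (ENSMUSG00000026981.15, chromosome 2, 24336853 to 24351494) encodes the interleukin-1 receptor antagonist. Etoposide libraries had 43, 53 and 63 counts, or 1.64, 2.03 and 2.24 CPM, alisertib libraries 30, 25 and 20 counts, and docetaxel libraries 38, 18 and 8 counts. Nutlin had 1 count over its 3 libraries, and every DMSO library had 0 counts. Against a floor of 3 counts over the DMSO group, Il1rn was at least 47.5-fold higher in etoposide, 22.2-fold in alisertib, 11.8-fold in docetaxel and 6.26-fold in PF-06873600 cells, where the libraries had 2, 7 and 11 counts. Without the libraries numbered 2 these bounds were 31.2, 14.6, 7.08 and 4.0. The floor of 3 counts then falls on fewer DMSO libraries, which lowers each bound by itself. Mean Il1rn was 1.94, 0.916, 0.394 and 0.247 CPM in these 4 groups then, against 1.97, 0.927, 0.494 and 0.259 CPM with all libraries. T/P and palbociclib had sums of 7 and 9 counts, too few for more than a level. In CPM, the etoposide libraries lay above the alisertib libraries, and these above the docetaxel libraries. The floor covers counting error only.

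Il1a (ENSMUSG00000027399.1, chromosome 2, 129299610 to 129309972), known as an early surface signal of senescent cells, had 9 counts over all 24 libraries, with 0 to 2 in each. Etoposide and palbociclib libraries had 0 counts. No difference in Il1a was detectable at this depth, and the gene was not tested.

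The neighbours of Il1rl1 in the receptor row are not members and were tested in the fit over all 15527 genes that passed the filter. Il18rap, the accessory chain of the interleukin-18 receptor, was at 3.97, 4.63 and 4.34 CPM in etoposide libraries, against 0.0436, 0.0414 and 0.199 CPM in DMSO libraries. It rose in 6 treatments, with log2 fold changes of 5.41 ± 0.432 for etoposide (adjusted p = 2.8e-10) and 3.06 ± 0.502 for palbociclib (adjusted p = 5.1e-05), and it had 1 count in all Nutlin libraries. Il18r1, the binding chain, rose to 0.722 ± 0.0436 CPM in etoposide, against 0.154 ± 0.0662 CPM in DMSO cells (log2 fold change 2.21 ± 0.517, adjusted p = 9.1e-04). Its calls in alisertib, docetaxel, PF-06873600 and palbociclib were each lost on leaving out DMSO 3, with adjusted p of 0.065, 0.132, 0.099 and 0.094. The docetaxel call was also lost without DMSO 1 (0.055), Docetaxel 1 (0.183) or Docetaxel 2 (0.061), that of PF-06873600 without PF-06873600 2 (0.091), that of palbociclib without Palbociclib 1 (0.055), and these 3 with no filter (0.082, 0.054 and 0.059). Without the libraries numbered 2, the docetaxel and PF-06873600 calls were lost (0.067 and 0.108). Il1r2, a decoy that binds interleukin-1 without signalling, was called higher in etoposide, alisertib, docetaxel and PF-06873600 cells, where it averaged 0.716, 1.05, 1.33 and 0.650 CPM, against 3 counts over the DMSO libraries, all in DMSO 3. Without DMSO 3 it was also called higher in T/P and palbociclib (adjusted p = 0.013 and 0.018), as it was on log2(TPM + 0.1) (adjusted p = 0.028 and 0.045). Il1rl2 had 16 counts in all and was not tested.

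**Figure D4:**
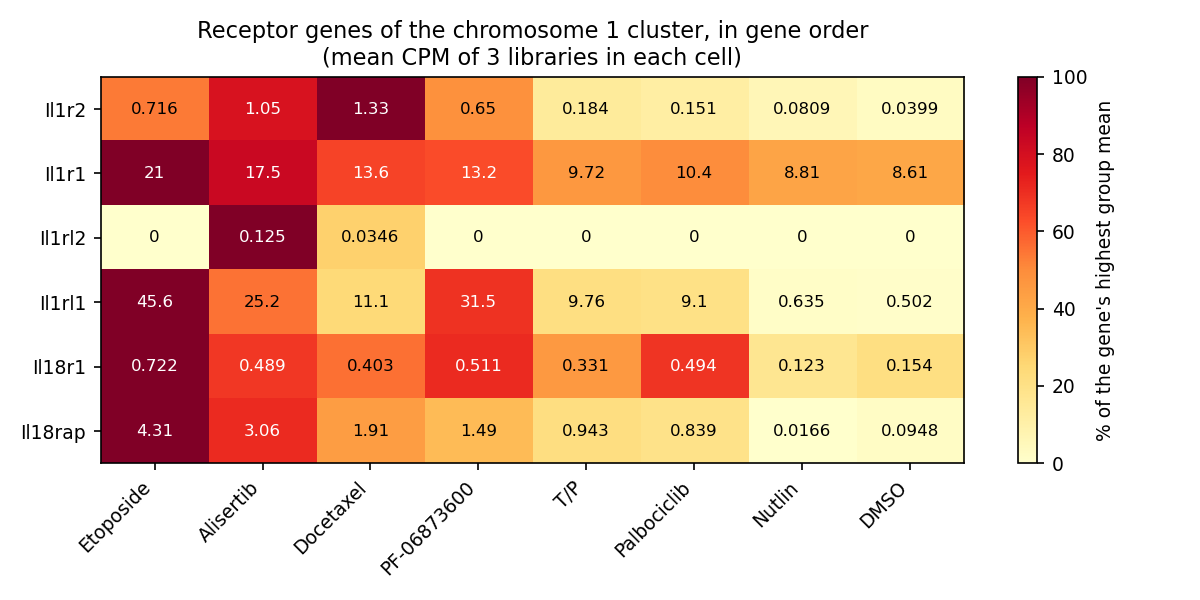
Mean CPM of 3 libraries for the 6 receptor genes of the chromosome 1 row in gene order, by group, coloured within each gene as the share of its highest group mean. Il1rl1 and Il18rap are highest in etoposide, and Il1r2 is highest in docetaxel at 1.33 CPM.

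The other genes of the pathway were taken from 6 lists of 95 genes, of which 67 passed the filter. Of the 67, 7 had at most 3 counts over the DMSO libraries. They passed through treated groups and could hardly be called lower, so that a difference was built into their passing. Such genes are also among all genes tested, where their share was not counted. Relative to DMSO, etoposide raised 36 and lowered 12 of the 67, where 54.6% of all genes tested were called, 27.7% higher and 26.9% lower. Alisertib raised 30 and lowered 12, beside 53.9% of all genes, 27.8% higher and 26.1% lower. Docetaxel raised 30 and lowered 11, beside 49% of all genes, 26.5% and 22.5%. PF-06873600 raised 29 and lowered 8, beside 32% of all genes, 17.9% and 14.1%. In these 4 treatments the share of pathway genes called higher was above that of all genes, and the share called lower was below it. The lists were chosen with earlier results of these data known, so that these shares are a description and not independent support. The lists were not alike. Called higher in these 4 treatments, in that order, were 91.7%, 70.8%, 79.2% and 66.7% of the response genes described below. Of genes that carry the receptor signal, 15.8%, 10.5%, 5.26% and 15.8% were, below the share of all genes. Regulators and targets of ST2, with 5 tested, were also below it. Ligands, receptors and processing genes were above it, with only 2, 5 and 12 genes tested. The ligand gene Il1b and the receptor gene Il1r2 had 0 and 3 counts over the DMSO libraries and could hardly be called lower. T/P raised 17 and lowered 10, beside 29.7% of all genes, 15.1% and 14.6%. Palbociclib raised 15 and lowered 16, beside 35.9% of all genes, 18.5% and 17.4%. Nutlin raised 5 and lowered 10, beside 19.4% of all genes, 8.02% and 11.4%, so that its shares were near the background. Scaling by total counts alone, which shifts the median of all genes by 0.21 (log2) in etoposide, 0.20 in alisertib and 0.21 in docetaxel, gave 43 higher and 10 lower for etoposide, 39 and 10 for alisertib, 37 and 7 for docetaxel and 17 and 11 for palbociclib. That scaling moved all genes the same way. Of all genes called with it, 71.6%, 71.8%, 78.4% and 65.6% were higher, in that order. With TMM factors these were 50.7%, 51.5%, 54.2% and 51.5%. The median log2 fold change of the 67 genes was 0.46 in etoposide, against 0.02 over all genes, and -0.004 in Nutlin, or -0.001 with genes at 0 set at their bound, against 0.002 over all genes. T/P against palbociclib called 2 of the 67, both higher, where 4.1% of all genes were called, 1.64% higher and 2.47% lower.

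**Figure D5:**
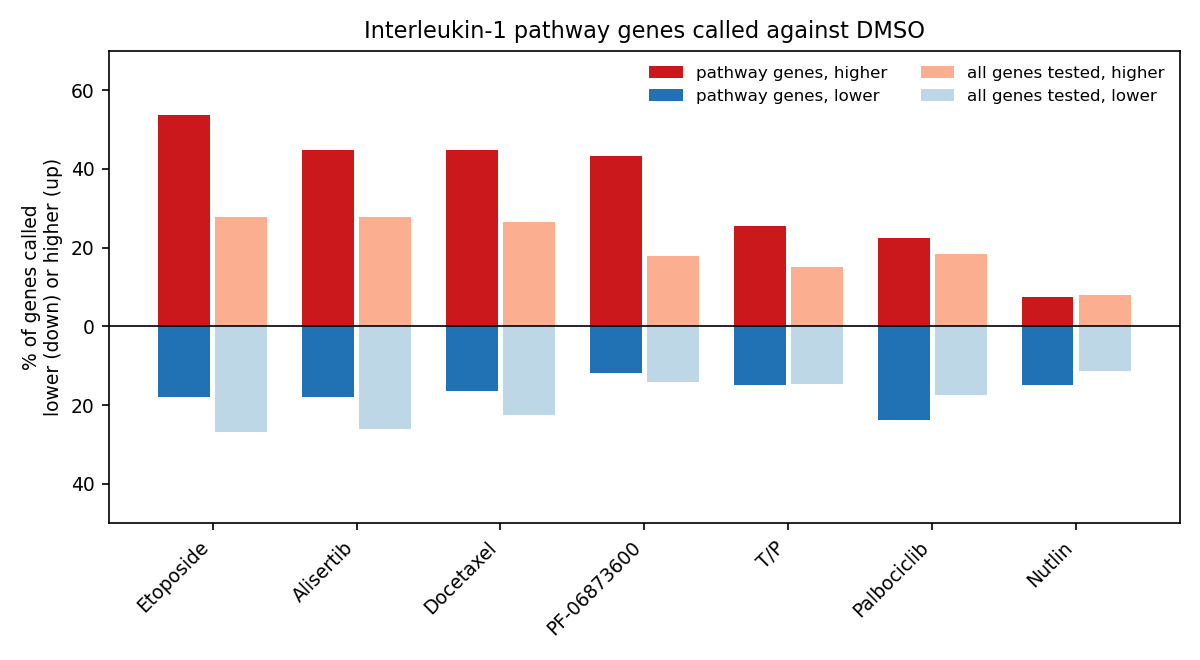
Share of the 67 pathway genes called higher (up) or lower (down) against DMSO, in darker bars, beside the share of all 15527 genes tested, in lighter bars, for the 7 treatments. The share called higher is 53.7% of pathway genes in etoposide, where 27.7% of all genes were called higher, and 7.46% in Nutlin, where 8.02% were.

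Of the other ligands, only Il1b and Il18 passed the filter. Il18 rose in 6 treatments, to 2.17, 3.25 and 2.92 CPM in etoposide libraries, against 0.349, 0.539 and 0.399 CPM in DMSO libraries (log2 fold change 2.68 ± 0.331, adjusted p = 3.1e-07). The log2 fold changes were 2.77 in alisertib, 2.40 in PF-06873600, 2.31 in T/P, 2.32 in palbociclib and 1.11 in docetaxel cells, where leaving out DMSO 1 gave an adjusted p of 0.053. In Nutlin cells it was -0.16 ± 0.421 (adjusted p = 0.84). Il1b, the ligand that caspase-1 matures, had 64 counts over the etoposide libraries, 29 over alisertib, 27 over docetaxel and 0 over DMSO libraries. In PF-06873600 libraries it had 2, 10 and 0 counts and was called higher. That call was lost without PF-06873600 2 (adjusted p = 0.261) and without the libraries numbered 2 (0.351). It was also lost without DMSO 1, DMSO 2 or DMSO 3 (0.072, 0.072 and 0.078) and with limma on both TPM scales. The decoy binder gene Il18bp was called in no comparison. It stood at 1.37 ± 0.457 CPM in PF-06873600 and 2.22 ± 0.525 CPM in DMSO cells, and was called lower with a block for the library number (log2 fold change -0.70, adjusted p = 0.015). Sigirr, an inhibitory receptor that restrains ST2 and interleukin-1 signalling, fell to 0.183 ± 0.123 CPM in T/P and 0.261 ± 0.0929 CPM in palbociclib, against 0.772 ± 0.391 CPM in DMSO cells. Its log2 fold changes were -2.06 ± 0.497 (adjusted p = 0.0027) and -1.55 ± 0.474 (adjusted p = 0.013). The palbociclib call was lost without DMSO 2 (adjusted p = 0.105) and without Palbociclib 3 (adjusted p = 0.056), and at 0.214 without the libraries numbered 2. In docetaxel Sigirr was at 1.34 ± 0.366 CPM and not called (log2 fold change 0.77 ± 0.388, adjusted p = 0.104). It was called higher there on log2(TPM + 0.1) and log2(TPM + 1), with total counts as scaling, without DMSO 2 and without the libraries numbered 2, with adjusted p of 0.032, 0.0095, 0.038, 0.028 and 0.018 and log2 fold changes of 0.53 to 1.32.

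Of 20 genes that carry the signal from the receptors, 19 were tested, and their median log2 fold change was within 0.07 of 0 in every treatment. Etoposide raised 3 and lowered 5 (15.8% and 26.3%), beside 27.7% and 26.9% of all genes tested. Nutlin raised 2 and lowered 2 (10.5% each), beside 8.02% and 11.4%. The share called in either direction was thus below that of all genes in etoposide, at 42.1% against 54.6%. In Nutlin it was near that share, at 21.1% against 19.4%. Peli2, an adaptor ligase of the IRAK complex, fell to 37.0 ± 2.23 CPM in etoposide, against 101.0 ± 5.85 CPM in DMSO cells (log2 fold change -1.45 ± 0.0699, adjusted p = 4.5e-14). The kinase gene Irak4 fell to 10.9 ± 0.328 CPM in etoposide, against 19.0 ± 1.13 CPM in DMSO cells (adjusted p = 9.3e-08), and by 0.72 in alisertib, 0.98 in docetaxel and 0.44 in PF-06873600 on the log2 scale. Irak2 fell to 6.24 ± 0.733 CPM in alisertib, against 15.4 ± 0.754 CPM in DMSO cells (log2 fold change -1.30, adjusted p = 5.8e-10), and was at 15.3 CPM in Nutlin cells.

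The genes of processing and release cut or free the ligands, and 12 of 19 were tested. Etoposide raised 6 and lowered 1 (50% and 8.33%), beside 27.7% and 26.9% of all genes tested. Palbociclib raised 2 and lowered 5 (16.7% and 41.7%), beside 18.5% and 17.4%. Nutlin raised 0 and lowered 5 (0% and 41.7%), beside 8.02% and 11.4%. Capn1, a calpain, fell in all 7 treatments, to 26.4 ± 2.06 CPM in etoposide and 32.2 ± 4.75 CPM in Nutlin, against 48.1 ± 0.361 CPM in DMSO cells (adjusted p = 6.0e-09 and 1.6e-05). Capn2, its close relative, rose in the 6 treatments other than Nutlin, to 232 ± 15.4 CPM in etoposide, against 170.5 ± 12.2 CPM in DMSO cells (adjusted p = 8.1e-07).

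The list of response genes, which NF-κB and interleukin-1 are known to induce, was the longest of those tested. Of the 24 tested, 4 had at most 3 counts over the DMSO libraries and could hardly be called lower. Earlier results of these data were known when the list was chosen, so that its shares are a description. Etoposide raised 22 of the 24 tested and lowered 2, and the numbers raised were 17 in alisertib, 19 in docetaxel, 16 in PF-06873600, 10 in T/P, 7 in palbociclib and 2 in Nutlin. The numbers lowered in those 6 groups were 1, 1, 0, 1, 4 and 2. Of all genes tested, 27.7% were called higher in etoposide and 27.8%, 26.5%, 17.9%, 15.1%, 18.5% and 8.02% in those 6 groups. Called lower were 26.9% in etoposide and 26.1%, 22.5%, 14.1%, 14.6%, 17.4% and 11.4% in those 6 groups. The median log2 fold change was 1.54 in etoposide and 0.05 in Nutlin, or 0.11 in Nutlin with genes at 0 set at their bound. Relb, an NF-κB subunit, rose in all 7 treatments, to 24.5 ± 1.76 CPM in etoposide and 5.21 ± 0.461 CPM in Nutlin, against 3.40 ± 0.7003 CPM in DMSO cells (adjusted p = 7.5e-15 and 0.0020). With only the 2 groups compared, the Nutlin call was lost (adjusted p = 0.078). Lcn2, an iron-binding acute phase protein, rose to 103 ± 15.2 CPM in etoposide and 23.1 ± 1.24 CPM in Nutlin, against 12.8 ± 1.13 CPM in DMSO cells (log2 fold changes 3.00 ± 0.124 and 0.85 ± 0.125). Vcam1, an adhesion molecule, averaged 6.55 ± 1.62 CPM in etoposide and 11.2 CPM in docetaxel cells, against 4 counts over the DMSO libraries. Mmp13, a collagenase, averaged 4.26 ± 0.439 CPM in etoposide cells and had 0 counts in DMSO. Cxcl5, a neutrophil chemokine, rose by 1.35 (log2) in PF-06873600 and fell by 1.30 in Nutlin cells, to 27.4 ± 2.80 and 4.34 ± 0.632 CPM, against 10.7 ± 1.86 CPM in DMSO cells. Between T/P and palbociclib, Cxcl1 was at 9.27 ± 1.07 and 4.64 ± 0.831 CPM and Ptgs2, the inducible cyclooxygenase, at 210 ± 7.70 and 113 ± 11.1 CPM (log2 differences 1.00 ± 0.135 and 0.89 ± 0.151). These are the 2 pathway genes called in that comparison.

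Factors known to drive Il1rl1 in blood cells, a ligase subunit that marks ST2 for breakdown and known ST2 targets made up a list of 13, of which 5 were tested. Etoposide raised 0 of the 5 and lowered 4, beside 27.7% and 26.9% of all genes tested. Nutlin raised 1 and lowered 1, beside 8.02% and 11.4%. Stat5a fell to 54.2 ± 0.612 CPM in etoposide, against 106 ± 7.15 CPM in DMSO cells (log2 fold change -0.97 ± 0.0615, adjusted p = 5.7e-12), and rose to 139 ± 3.26 CPM in Nutlin cells (log2 fold change 0.39 ± 0.0604, adjusted p = 4.0e-05). Gata3 fell to 172 ± 4.43 CPM in etoposide, against 295 ± 9.14 CPM in DMSO cells (log2 fold change -0.78 ± 0.0691, adjusted p = 1.6e-09), and by 0.79 in alisertib, 0.51 in docetaxel and 0.54 in PF-06873600. Its log2 fold change was -0.14 in T/P and in palbociclib and -0.01 in Nutlin, none of them called. Stat5b fell in the 6 treatments in which Il1rl1 was high, by 0.97 (log2) in etoposide and 0.28 in palbociclib, where the call was lost on log2(TPM + 1) (adjusted p = 0.172). Gata1, Gata2, Spi1, Tbx21, Il5, Il9, Il13 and Areg were too low to be tested.

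The 8 genes most like Il1rl1 were sought by Pearson's r of the group means of log2 CPM over the 8 groups, among 9888 genes with at least 5 CPM in a group. Among them were Vat1 (r = 0.989), Pank2 (0.982), Ehd4 (0.981), Havcr2 (0.980), Smad2 (0.978), Adam8 (0.976) and Tsc22d2 (0.976). An r of 0.95 or more was found for 79 of the 9888 genes. The sizes of the differences were not alike. Vat1 was at 209 ± 14.0 CPM in etoposide and 125 ± 3.10 CPM in DMSO cells. Havcr2, which encodes the immune checkpoint receptor TIM-3, was the nearest in size of difference, at 15.3 ± 1.88 CPM in etoposide, 0.245 ± 0.0464 CPM in Nutlin and 0.0695 ± 0.0246 CPM in DMSO cells. Adam8, a membrane protease, was at 18.2 ± 1.39, 1.51 ± 0.595 and 1.48 ± 0.500 CPM in those groups. The r with Il1rl1 was 0.867 for Il1rap, 0.843 for Il1rn, 0.829 for Il1r1 and 0.705 for Il33. The points are 8 means that share the DMSO group and its libraries, and these values carry no test.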

How the data were processed

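Raw counts per gene and TPM were used as deposited. Per the submitters' processing notes, the authors named fastp, STAR, featureCounts and DESeq2 and the build mm10. Strand setting and the treatment of multiply aligned reads are not given in the sources used here. The deposited TPM table holds 24621 genes, counts scaled by the authors to length and library size.

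The 6 genes and all gene lists were chosen with earlier results of these data known. In R 4.3.3, edgeR 4.0.16 fitted 1 quasi-likelihood model to all 24 libraries, each group having its own mean, with TMM factors and filterByExpr (minimum count 10, minimum total 15), which left 15527 genes. P-values are two-sided, adjusted by Benjamini-Hochberg over these genes, and called under 0.05. They measure only the spread between libraries, which may be technical, since the labels name no separate cultures. Chi-square tests of counts found no copied library within a group. Means carry the SD of 3 libraries and fold changes their SE. Named pathway genes were all tested ligands and receptors and, of each other list, the 4 largest called changes per comparison with a mean of at least 1 CPM. A gene so named in 1 comparison is also given in others.

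Library numbers paired the samples of etoposide, alisertib and PF-06873600 with DMSO by the rule that every same-numbered pair correlates above 0.1 (lowest 0.170, 0.208 and 0.117). The labels state no such pairing. Alternatives were RLE and total-count scaling, DESeq2 1.42.0, limma 3.58.1 on log2(TPM + 1) and log2(TPM + 0.1), no filter, only the 2 groups compared, a replicate block, no libraries numbered 2, and leaving out each library. The pipeline was tested on simulated data. Some genes of the lists are not reported here.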

Additional observations from a re-analysis of the deposited data

How the results depend on the processing

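The log2 fold change of Il1rl1 stayed positive under every alternative run. On log2(TPM + 1) with limma it was 4.22 in etoposide, 3.47 in alisertib, 2.39 in docetaxel, 3.61 in PF-06873600, 2.09 in T/P and 2.06 in palbociclib, where the pseudocount exceeds the DMSO level of 0.202 TPM. Leaving out each library in turn gave 6.20 to 6.83 in etoposide, 5.35 to 5.97 in alisertib, 4.13 to 4.75 in docetaxel, 5.63 to 6.25 in PF-06873600, 3.96 to 4.58 in T/P, 3.85 to 4.47 in palbociclib, 0.06 to 0.68 in Nutlin and 0.04 to 0.22 for T/P against palbociclib. The lowest values against DMSO came without DMSO 3 and the highest without DMSO 2. The number of pathway genes called ran from 43 to 49 in etoposide, 40 to 44 in alisertib, 38 to 42 in docetaxel, 27 to 36 in PF-06873600, 24 to 28 in T/P, 27 to 29 in palbociclib, 10 to 15 in Nutlin and 2 to 2 for T/P against palbociclib when each library was left out. Nutlin's 15 fell to 10 without DMSO 2, DMSO 3 or Nutlin 1, and to 9 with only the 2 groups compared. For T/P against palbociclib, 2 genes became 4 with DESeq2, 5 with no filter, 6 with only the 2 groups, 3 with RLE scaling, 3 without the libraries numbered 2 and 11 with the replicate block, whose pairing the correlations did not bear out there. The cause was not tested. Without the libraries numbered 2 the counts were 45 in etoposide, 43 in alisertib, 41 in docetaxel, 29 in PF-06873600, 23 in T/P, 24 in palbociclib and 12 in Nutlin. The numbers of all genes called under these alternatives are not given here. Whether the pathway counts moved more than those of all genes is therefore not shown. The block changed the call of no other named gene than Il18bp. Of the 8 genes most like Il1rl1, 2 stayed among the first 8 over the 24 libraries, 4 without the libraries numbered 2 and 0 by Spearman's rho. Of 162 named gene and comparison pairs none reversed. On leaving out each library, 908 values kept their call or lack of one, 61 lost a call and 3 gained one. Calls lost and gained were 13 and 1 without the libraries numbered 2, 10 and 0 with no filter, and 8 and 0 with only the 2 groups compared. They were 10 and 3 on log2(TPM + 0.1), 10 and 1 on log2(TPM + 1), 4 and 1 with total-count scaling, 1 and 0 with RLE scaling, and 0 and 0 with DESeq2. Depth limits Il1a, Il1rn, Il1b, Il1r2 and Il18r1 in controls.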
